A study of Mus musculus with 9 samples.

Results

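Expression of 10 listed genes of steroid synthesis was examined in the mouse urogenital sinus, the embryonic structure that forms the prostate and the bladder neck. The list held the regulator Nr5a1, the cholesterol carrier Star, the enzymes Cyp11a1, Hsd3b1, Cyp17a1, Hsd17b1, Hsd17b2, Hsd17b3 and Hsd17b7, and aromatase, Cyp19a1. Members were the probe sets of the array annotated to one of these symbols alone. There were 17 such probe sets, for 9 genes of the 18193 genes that had one. Cyp19a1 had no probe set in the annotation used, so aromatase is not analysed here. The 9 Affymetrix arrays came from C57BL/6 litters whose mothers received 1 of 3 agents. These were bisphenol A (BPA), a building block of plastics that binds estrogen receptors weakly, at a dose of 20 µg/kg/day, the potent man-made estrogen diethylstilbestrol (DES), at a dose of 0.2 µg/kg/day, and for control the vehicle alone, corn oil stripped of tocopherol. Dosing ran from embryonic day 13 to 16. Every agent was measured on 3 arrays, 1 for each age: days 17 and 18 of gestation (E17 and E18) and birth (P0). The tissue had been freed of bladder, urethra, Wolffian and Mullerian duct and seminal vesicle in both sexes, per the labels. They do not say how many animals, litters or sexes went into an array.

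Steroid hormones are made from cholesterol by a fixed chain of enzymes. Star carries cholesterol into the mitochondrion, Cyp11a1 cuts its side chain to give pregnenolone, Hsd3b1 and Cyp17a1 turn that into androgens, and aromatase turns androgens into estrogens. The Hsd17b enzymes then switch androgens and estrogens between weak and strong forms, and Nr5a1 (steroidogenic factor SF-1) is the nuclear receptor that turns on much of the chain in gonad and adrenal cortex. The series asked what BPA does to the urogenital sinus. For these genes the question is whether the tissue's own steroid synthesis machinery differed after exposure.

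On 1 of the 9 arrays, BPA at P0, 1 probe set each of 6 of the 9 genes read at least 2 log2 units higher than on any other array: Hsd3b1, Cyp11a1, Hsd17b1, Cyp17a1, Hsd17b3 and Nr5a1. Over all 45037 probe sets tested, 72 (0.16%) did so. The members were chosen with earlier results of these data known. The other probe sets of Cyp11a1 (2) and Nr5a1 (1) did not read that high, while the other 4 genes have 1 probe set each. By the probe set brightest on average for each gene, the count was 5 of 9, without Cyp11a1. On the BPA arrays of E17 and E18 the highest reading of the 6 high probe sets was 55.7, of Nr5a1 at E18. No probe set of the list passed the test of BPA against control over the 3 ages. The same BPA P0 array was the highest of the 9 for 8 of 10 Sertoli cell, 4 of 7 germ cell and 4 of 4 epidermis markers. By at least 2 log2 units this held for 2, 3 and 2 of them. Of all probe sets 18.3% were highest there. So was Inha, the 1 gene measured from a list of Leydig cell markers. These values are given beside the results.

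RefSeq promoter windows (GRCm38.p6, 250 bases before to 50 after the start site, 5′ to 3′ on the gene's strand) were at hand for 3 of those 6 genes, and they are shown because these genes were high together on the BPA P0 array. Capitals mark a match to any of 3 motifs searched on both strands: AAGGNCA, the kind of site that NR5A1 binds, AGATAA, the kind that GATA factors bind, and TATAAA, the TATA box. The window of Hsd3b1, chr3:98859745-98860044, is on the minus strand. Cyp11a1, chr9:57997774-57998073, the first of its 2 windows, is on the plus strand. Hsd17b3, chr13:64089152-64089451, is on the minus strand.
Hsd3b1: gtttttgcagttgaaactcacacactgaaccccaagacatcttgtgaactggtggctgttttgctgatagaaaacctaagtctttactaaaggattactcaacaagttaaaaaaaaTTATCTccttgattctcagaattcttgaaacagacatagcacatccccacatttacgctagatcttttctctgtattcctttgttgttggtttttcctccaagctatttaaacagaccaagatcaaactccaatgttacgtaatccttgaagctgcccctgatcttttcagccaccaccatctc
Cyp11a1: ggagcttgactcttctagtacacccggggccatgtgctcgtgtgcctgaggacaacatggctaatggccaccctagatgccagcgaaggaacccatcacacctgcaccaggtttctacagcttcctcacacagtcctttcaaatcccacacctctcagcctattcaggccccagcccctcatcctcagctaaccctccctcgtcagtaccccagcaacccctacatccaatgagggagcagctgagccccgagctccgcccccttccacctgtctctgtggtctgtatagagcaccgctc
Hsd17b3: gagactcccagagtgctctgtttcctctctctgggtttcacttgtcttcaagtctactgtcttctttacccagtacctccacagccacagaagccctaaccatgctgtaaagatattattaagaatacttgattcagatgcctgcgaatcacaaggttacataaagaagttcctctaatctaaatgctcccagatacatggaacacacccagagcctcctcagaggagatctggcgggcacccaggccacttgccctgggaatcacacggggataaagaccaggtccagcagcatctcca
The Hsd3b1 window held 1 match, AGATAA on the opposite strand, 134 bases before the start site. The windows of Cyp11a1 and Hsd17b3 held none, which says only that these letters do not occur there. The second window of Cyp11a1, chr9:58014702-58015001, is not shown and held none either. Which start site of Cyp11a1 was in use on these arrays was not tested. Of 32851 promoter windows of the same length, 20.3% held AAGGNCA, 11.2% AGATAA and 13.6% TATAAA. With 1 match in all, no 2 matches overlapped.

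All signals below are intensities after quantile normalisation, which gives the 9 arrays one common distribution. Log2 differences were taken after adding a pseudocount of 5.46, so those of dim probe sets are understated. Detection calls were not used here, and signals near the pseudocount were read as dim, with no order among them. By mean log2 signal, 11 of the 17 probe sets lay below the 40th percentile of all probe sets, a signal of 41.2. Those above it were 1 of Star, 1 of Hsd17b2 and the 4 of Hsd17b7. The deposited intensities were unequal between arrays, with a lowest trimmed mean of 157 (BPA at P0) and a highest of 277 (DES at E17). Of 10 listed markers of the urogenital sinus, 8 had a probe set and all 8 lay above the 40th percentile. Their summed signal was 7844 on the BPA P0 array, against 6815 to 10350 on the other 8. Xist, the transcript of the inactive X in females, read 1110 on the DES E17 array, against 51.8 to 121 on the others. All arrays carried the Y-linked transcript Eif2s3y, at 295 to 593, and the 3 measured Y-linked transcripts summed to 1111 on the BPA P0 array, against 755 to 1135 on the others.

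**Figure D1:**
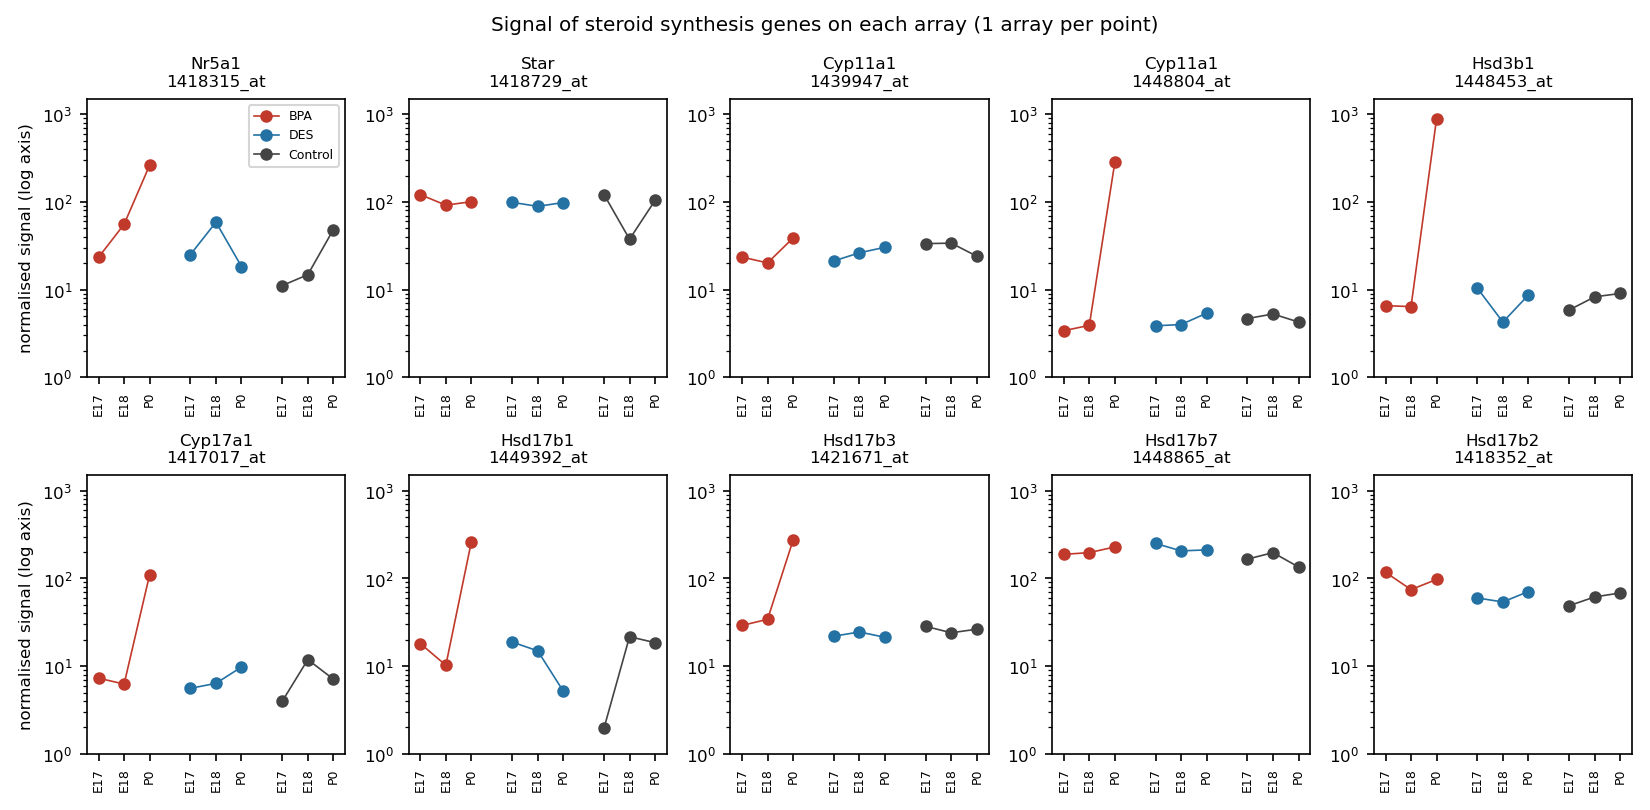
Normalised signal (log axis) of the 9 main probe sets and of the Cyp11a1 probe set 1448804_at, with 1 point for each array, grouped by agent (BPA, DES, control) and ordered by age. Hsd3b1 stands at 886 and Cyp11a1 1448804_at at 283 on the BPA P0 array, far above all their other points, while Star, Hsd17b2 and Hsd17b7 span under 2 log2 units.

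Nr5a1, the regulator, had 2 probe sets. By 1418315_at it read 23.4, 55.7 and 263 on the BPA arrays at E17, E18 and P0, 25.1, 58.9 and 18.4 on the DES arrays, and 11.1, 14.8 and 48.3 on the control arrays. The BPA array was above the control array at each age, and the BPA and control groups overlapped. The log2 difference of BPA from control was 0.80 for the E17 pair, 1.59 for the E18 pair and 2.32 for the P0 pair, and in the fit 1.57 ± 0.64 (SE; limma adjusted p = 0.649). Without the BPA P0 array it was 0.79 ± 0.59 (limma adjusted p = 0.844). The second probe set, 1421730_at, read 1.67 to 7.72 over the 9 arrays, close to the pseudocount, and 6.07 on the BPA P0 array. The 2 probe sets of Nr5a1 thus disagreed on the BPA P0 array.

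Star, the cholesterol carrier, had 3 probe sets. The brightest, 1418729_at, read 121, 92.0 and 101 on the BPA arrays, 99.0, 89.2 and 98.5 on the DES arrays, and 121, 37.6 and 104 on the control arrays. The control E18 array alone was low. The log2 differences at E18, 1.18 for BPA and 1.14 for DES, share that array. In the fit the difference of BPA from control was 0.38 ± 0.29 (limma adjusted p = 0.804). Without the control E18 array it was -0.042. The dimmer 1418728_at read 46.7 on the BPA P0 array, against 10.7 to 22.7 on the other 8, and 1449201_at read 9.81, against 2.05 to 5.46. Of these, 1418728_at was highest on the BPA P0 array, by 0.89 log2 units, which 1418729_at was not. The signals of 1449201_at lay near the pseudocount, where no order was read.

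Cyp11a1, the side-chain cleavage enzyme that starts steroid synthesis, had 3 probe sets that disagreed. By 1448804_at, whose annotated source is a RefSeq transcript, it read 3.40, 3.91 and 283 on the BPA arrays, 3.87, 4.0 and 5.39 on the DES arrays, and 4.68, 5.28 and 4.27 on the control arrays. All arrays but BPA P0 were at or below the pseudocount, and BPA P0 lay 4.73 log2 units above the highest of them after it was added. The log2 difference of BPA from control was -0.19 for the E17 pair, -0.20 for the E18 pair and 4.89 for the P0 pair. In the fit it was 1.5 ± 0.94 (limma adjusted p = 0.767), and without the BPA P0 array -0.14 ± 0.30 (limma adjusted p = 0.954). The brightest on average, 1439947_at, read 23.5, 20.2 and 38.8 on the BPA arrays, 21.3, 26.3 and 30.4 on the DES arrays, and 33.5, 33.9 and 24.1 on the control arrays. Its BPA and control groups overlapped (-0.15 ± 0.32, limma adjusted p = 0.942). The third, 1457604_x_at, read 26.2, 31.3 and 6.84 on the BPA arrays, 2.87, 3.84 and 4.24 on the DES arrays, and 23.6, 6.01 and 4.73 on the control arrays. It was high on BPA E17, BPA E18 and control E17, a pattern that neither other probe set of the gene had.

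Hsd3b1, which makes progesterone from pregnenolone, showed the widest range of the 17 probe sets. It read 6.56, 6.41 and 886 on the BPA arrays, 10.4, 4.27 and 8.68 on the DES arrays, and 5.86, 8.28 and 9.04 on the control arrays. BPA P0 lay 5.82 log2 units above the highest of the other 8 after the pseudocount, and those 8 lay close together near it. At E17 and E18 the log2 differences of BPA from control were 0.09 and -0.21, and at P0 5.94. The fit over ages gave 1.94 ± 1.14 (limma adjusted p = 0.751), and without the BPA P0 array -0.07 ± 0.35 (limma adjusted p = 0.986). Genes of the Hsd3b family are near-identical copies that can share probes. Hsd3b2 read 23.9 on the BPA P0 array against 4.65 to 18.5 on the others, and Hsd3b3 read 31.6 against 20.0 to 35.5. Both are named because of that likeness.

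Cyp17a1, the hydroxylase and lyase that opens the route to androgens, read 7.29, 6.24 and 110 on the BPA arrays, 5.58, 6.36 and 9.77 on the DES arrays, and 3.99, 11.9 and 7.11 on the control arrays. BPA P0 lay 2.74 log2 units above the highest of the others, which were near the pseudocount. The fitted log2 difference of BPA from control was 1.02 ± 0.64 (limma adjusted p = 0.766). It was 0.0063 ± 0.36 without the BPA P0 array (limma adjusted p = 0.9996).

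Hsd17b1, which reduces estrone to the strong estrogen estradiol, read 18.1, 10.2 and 262 on the BPA arrays, 18.8, 14.9 and 5.20 on the DES arrays, and 1.97, 21.7 and 18.5 on the control arrays. BPA P0 lay 3.30 log2 units above the highest of the others. The control E17 and DES P0 arrays were below the pseudocount. Both log2 differences at E17, 1.67 for BPA and 1.71 for DES, share the control E17 array. The fitted difference of BPA from control was 1.45 ± 0.90 (limma adjusted p = 0.764), and 0.13 ± 0.66 without the BPA P0 array (limma adjusted p = 0.986).

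Hsd17b3, the testis enzyme that makes testosterone, read 29.1, 34.2 and 274 on the BPA arrays, 22, 24.5 and 21.3 on the DES arrays, and 28.4, 24 and 26.4 on the control arrays. The BPA arrays all lay above the control arrays, though at E17 by 0.03 log2 units only. With each array scaled to a common trimmed mean in place of quantile normalisation the 2 groups overlapped. The log2 difference was 0.43 at E18 and 3.13 at P0. The fit gave 1.20 ± 0.59 (limma adjusted p = 0.713), and 0.21 ± 0.31 without the BPA P0 array (limma adjusted p = 0.930).

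Hsd17b2, which oxidises estradiol and testosterone to weaker steroids, read 118, 74.7 and 97.5 on the BPA arrays, 59.9, 54.0 and 71.0 on the DES arrays, and 49.0, 61.6 and 68.4 on the control arrays. The BPA arrays all lay above the control arrays, and the highest of the 9 was BPA E17, not BPA P0. The means were 96.6 ± 21.5 on the BPA arrays and 59.7 ± 9.84 on the control arrays (SD, n = 3 arrays each). The log2 difference was 1.18 for the E17 pair, 0.26 for the E18 pair and 0.48 for the P0 pair, and 0.64 ± 0.23 in the fit (limma adjusted p = 0.617). It was 0.72 ± 0.27 without the BPA P0 array (limma adjusted p = 0.677). With the values as deposited the difference at P0 was -0.056 and the groups overlapped, on an array whose trimmed mean was the lowest of the 9.

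Hsd17b7, which reduces estrone and also serves cholesterol synthesis, had 4 probe sets, all above the 40th percentile. By 1448865_at it read 189, 197 and 229 on the BPA arrays, 251, 206 and 212 on the DES arrays, and 166, 197 and 135 on the control arrays. The DES arrays all lay above the control arrays (0.42 ± 0.17, limma adjusted p = 0.907), while the BPA arrays overlapped with them (0.30 ± 0.17, limma adjusted p = 0.740). By 1457248_x_at it read 186, 200 and 152 on the BPA arrays, 173, 166 and 127 on the DES arrays, and 127, 147 and 122 on the control arrays. Here the BPA arrays all lay above the control arrays, by 0.42 ± 0.14 in the fit (limma adjusted p = 0.589) and 0.44 ± 0.16 without the BPA P0 array. By 1417871_at the BPA arrays, at 101, 111 and 82.8, also lay above the control arrays, at 76.7, 71.6 and 67.4. The fourth, 1440057_at, read 31.6 to 52.9 over the 9 arrays. All 4 had a positive fitted difference of BPA from control, 0.22 to 0.42. They belong to the same gene and are not 4 independent measurements. With values as deposited the difference of BPA from control at P0 was below 0 for 3 of them, at -0.27, -0.24 and -0.58, and 0.16 for 1448865_at.

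**Figure D2:**
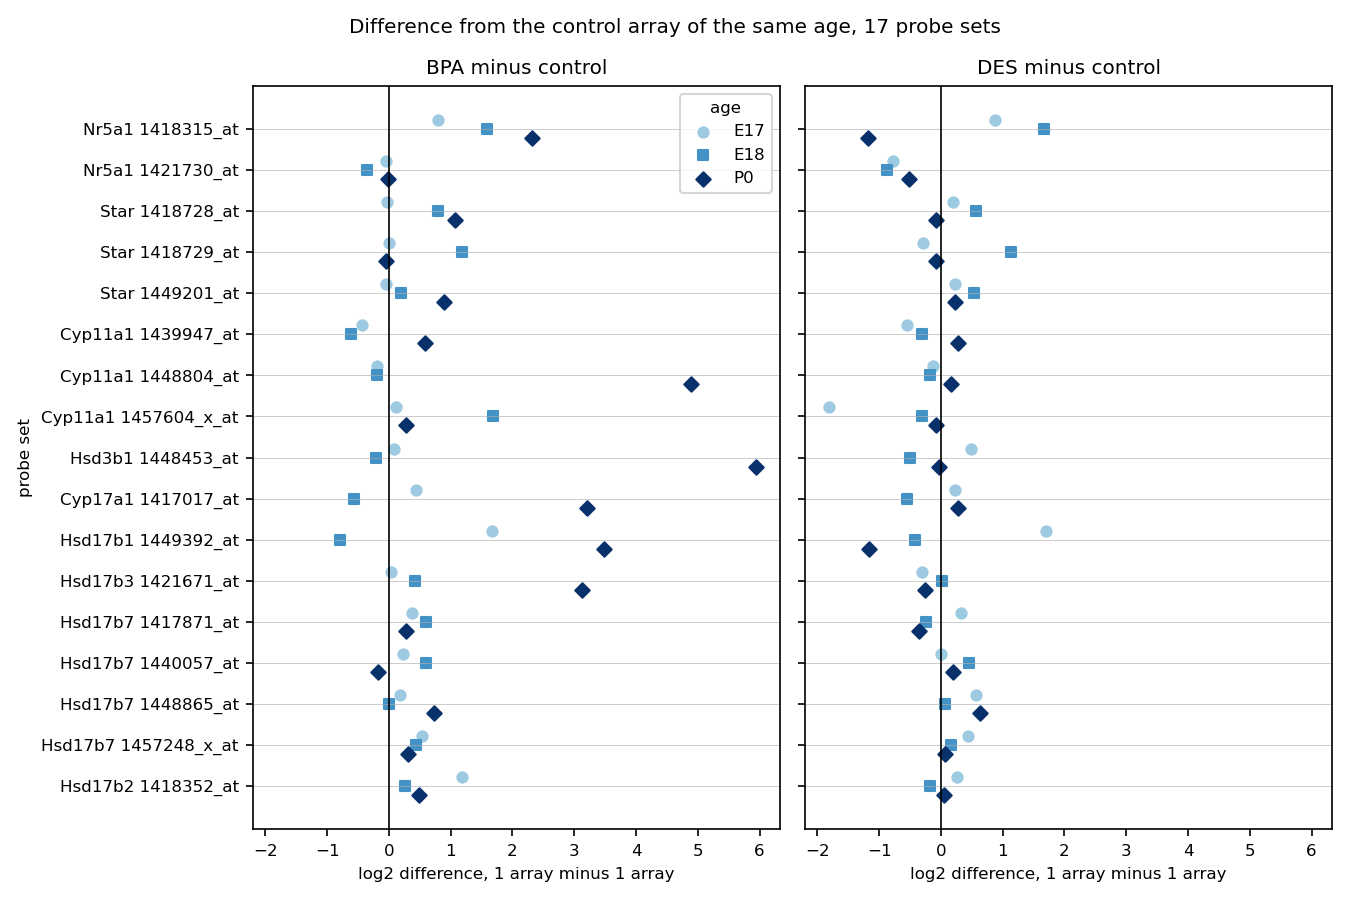
Log2 difference of the BPA array (left) and the DES array (right) from the control array of the same age, for the 17 probe sets, with a circle for E17, a square for E18 and a diamond for P0. The diamonds of 6 genes stand at 2.32 to 5.94 in the BPA panel, and no DES point reaches 2.

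Across the list, 7 of the 17 probe sets, each of a different gene, had a log2 difference of at least 1 between BPA and control at P0, and 0 had one of at most -1. Over all 45037 probe sets tested, 5.89% were past 1 upward and 6.09% downward at P0. At E17, 2 of 17 were past 1 upward, Hsd17b1 and Hsd17b2 (3.73% of all probe sets), and 0 downward (3.92%). At E18 it was 3 upward, of Cyp11a1, Star and Nr5a1 (4.57%), and 0 downward (4.59%). Each of these sets 1 array against 1 array, with no replicate check.

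In the fit across ages with limma, 0 of 45037 probe sets passed for BPA against control at an adjusted p of 0.05, in either direction (0% each), while 3332 had an unadjusted p under 0.05. Among the 17 members, 3 were among those higher before adjustment, of Hsd17b2, Hsd17b7 and Nr5a1 (3.52% of all probe sets were), and 0 among those lower (3.88%). The 6 genes that were high on the BPA P0 array had standard errors of 0.59 to 1.14, against 0.14 to 0.26 for Hsd17b2 and the 4 of Hsd17b7. The median log2 difference over the 9 main probe sets, 1 for each gene, was 1.02, with 8 of 9 above 0, against -0.0010 over all probe sets. Without the BPA P0 array the median was 0.14, with 7 of 9 above 0. The BPA arrays all lay above the control arrays for 4 of the 17, of Hsd17b2, Hsd17b3 and 2 of Hsd17b7 (5.49% of all probe sets), and all below for 0 (5.28%). With the values as deposited both counts were 0, where 1.55% of all probe sets lay above and 11% below. BPA was above control in the pair of each age for 6 of the 17 (14.5% of all probe sets) and below in each for 1, Nr5a1 1421730_at (14.7%).

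**Figure D3:**
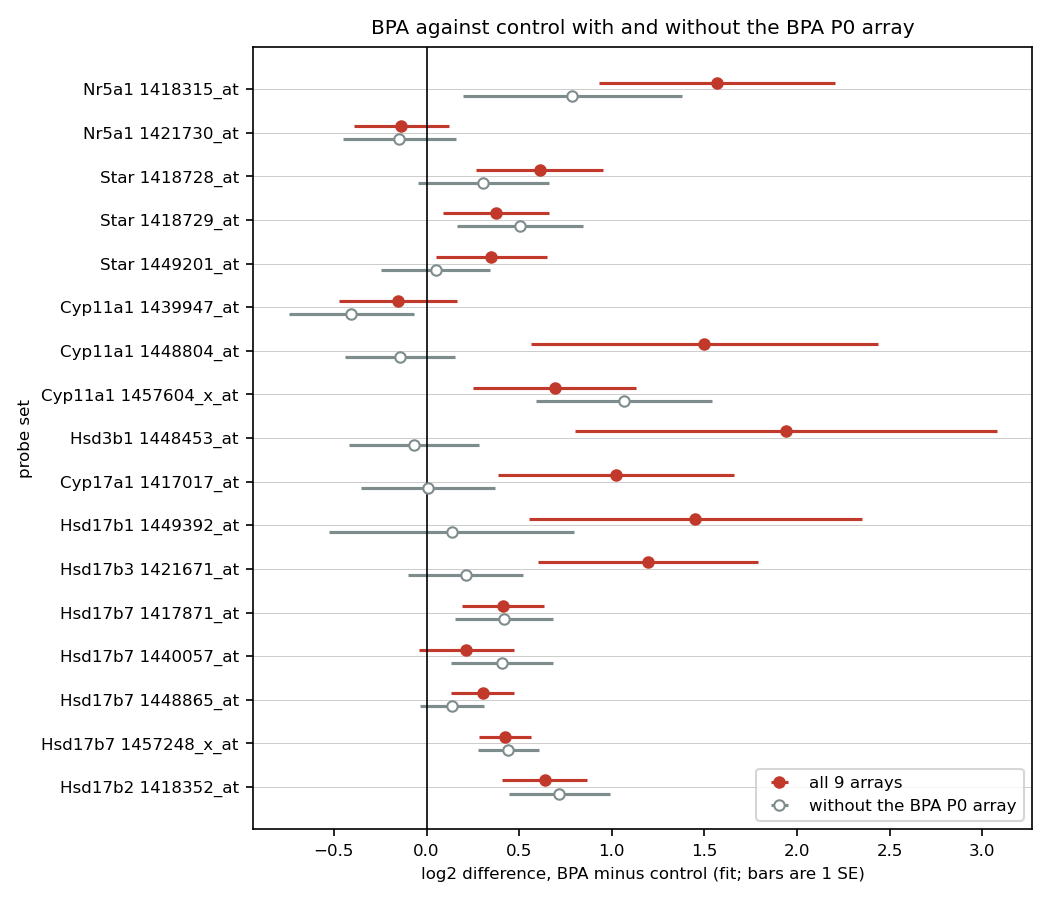
Fitted log2 difference of BPA from control for the 17 probe sets, with bars of 1 SE, from all 9 arrays (filled) and without the BPA P0 array (open). For Hsd3b1 the filled point is at 1.94 and the open one at -0.07, while for Hsd17b2 they are at 0.64 and 0.72.

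Whether the difference of BPA from control moved with age was tested as a log2 change per age step. It was 2.93 ± 0.82 for Hsd3b1, 2.54 ± 0.71 for Cyp11a1 1448804_at and 1.55 ± 0.47 for Hsd17b3 (limma adjusted p = 0.601 for each). These 3 were among the probe sets with a higher unadjusted call (3.71% of all), and 0 members were among the lower ones (4.1%). Over all probe sets 2 passed upward (0.00444%) and 0 downward, none of them a member. On the BPA arrays these 3 were dim at E17 and E18 and bright at P0, a course that a straight line follows poorly.

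For DES, 0 of the 17 probe sets were past a log2 difference of 1 upward from control at P0 (4.71% of all), and 2 downward, Hsd17b1 at -1.17 and Nr5a1 at -1.18 (4.62%). At E17 it was 1 upward, Hsd17b1 (3.32%), and 1 downward, Cyp11a1 1457604_x_at (3.44%). At E18 it was 2 upward, Nr5a1 and Star (4.09%), and 0 downward (4.51%). The DES arrays all lay above the control arrays for Star 1449201_at and Hsd17b7 1448865_at (5.7% of all probe sets), and all below for Cyp11a1 1457604_x_at and Nr5a1 1421730_at (5.01%). Of these 4, all but Hsd17b7 compare signals that lie at least in part near the pseudocount, where no order was read. DES was above control in the pair of each age for 4 of the 17 (14.1%) and below in each for 2 (13%). In the limma fit of DES against control 0 of 45037 passed, with 2421 at an unadjusted p under 0.05. Among members the unadjusted calls were Hsd17b7 1448865_at higher (2.7% of all) and Nr5a1 1421730_at lower (2.68%), the second at signals of 2.29, 1.67 and 2.71 on the DES arrays and 7.72, 7.52 and 6.16 on the control arrays. The median over the 9 main probe sets was 0.04, with 5 of 9 above 0, against 0.0027 over all probe sets. The BPA and DES comparisons share the 3 control arrays.

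Between E17 and P0, with all agents in the fit, 7 probe sets rose and 0 fell in the limma fit (0.0155% and 0%), none of them a member, and 5837 had an unadjusted p under 0.05. The member nearest to the threshold was Nr5a1 1418315_at, with 110 ± 133 at P0 and 19.9 ± 7.63 at E17 (SD, n = 3 arrays each). Its log2 difference was 1.52 ± 0.64 (limma adjusted p = 0.366). It was the 1 member with a higher unadjusted call (6.15% of all), and 0 were lower (6.81%). Without the DES P0 array, where it read 18.4, the difference was 2.52 and passed (limma adjusted p = 0.0346), in a fit that called 780 probe sets. Without the BPA P0 array it was 0.74 ± 0.59 (limma adjusted p = 0.718). The median over the main probe sets was 0.96, and 0.02 without the BPA P0 array.

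Set against each other array rather than against control, the BPA P0 array was the brightest of the 9 by at least 2 log2 units for 6 of the 17 probe sets. Over all 45037 this held for 72 (0.16%), and for 0 to 4 probe sets on each of the other arrays. With trimmed-mean scaling the members were the same 6 genes, and with values as deposited Nr5a1 dropped out, leaving 5 members among 28 probe sets. Markers of other cell types moved on the same array. The members and the marker lists were chosen with earlier results of these data known, so counts from them are not independent support. Of 10 Sertoli cell markers, all with a probe set, 8 were highest on the BPA P0 array, as were 18.3% of all 45037 probe sets. Only 2 of the 10 were at least 2 log2 units above each other array. The summed signal of the 10 was 2847 on the BPA P0 array, against 754 to 936 on the other 8. Among them Amh, the hormone that removes the Mullerian duct, read 296 against 3.33 to 8.10, Cst9 read 553 against 0.877 to 2.14, and Aard read 1095 against 217 to 368. Inhbb, an inhibin and activin subunit, read 118, 105 and 174 on the BPA arrays and 85.3, 20.3 and 130 on the control arrays. The Sertoli markers that were not highest on the BPA P0 array, named after their values were seen, were Sox9 and Sox8. Sox9 read 184 there against 141 to 267, and Sox8 47.1 against 14.7 to 49.1. Of 7 measured germ cell markers 4 were highest there (18.3% of all probe sets), with a sum of 641 against 116 to 191. Mael read 251 against 0.478 to 7.91, Ddx4 122 against 4.73 to 22.6, and Dazl 117 against 0.886 to 23.2, all 3 being genes of the germ line. The germ cell markers not highest there, also named after their values were seen, were Dppa3, Pou5f1 and Stra8. Dppa3 read 41.8 against 27.7 to 44.2, Pou5f1 9.95 against 3.45 to 32.5, and Stra8 51.6 against 46.2 to 85.2. Of 4 genes listed as Leydig cell markers only Inha, inhibin alpha, had a probe set, and it read 1813 against 170 to 266. This 1 gene does not tell whether Leydig cells were present. The defining Leydig genes Insl3 and Lhcgr were not among the annotated probe sets used here.

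For the other steroid-making tissues, of 5 measured adrenal cortex markers 1 was highest there, near the 18.3% of all probe sets: Cyp21a1, the brightest of the list, at 105 against 44.8 to 79.6. The list's sum was 205 against 121 to 215. Other adrenal genes, named after their values were seen, were within the range of the others: Cyp11b1, the enzyme of corticosterone synthesis, read 40.2 against 10.9 to 49.8, and Mc2r, the ACTH receptor, 25.2 against 4.10 to 40.2. Of 6 fetal ovary and granulosa markers 0 were highest there, and their sum was 1842 against 1773 to 2189. The 5 adrenal medulla markers summed to 1728 against 1872 to 2304, with Dbh the brightest. The 4 epidermis markers summed to 17818 against 764 to 6856. In a whole tissue, more cells of a type and more RNA per cell cannot be told apart. The part that cells of another organ had in the high steroid gene signals of the BPA P0 array was not tested.

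**Figure D4:**
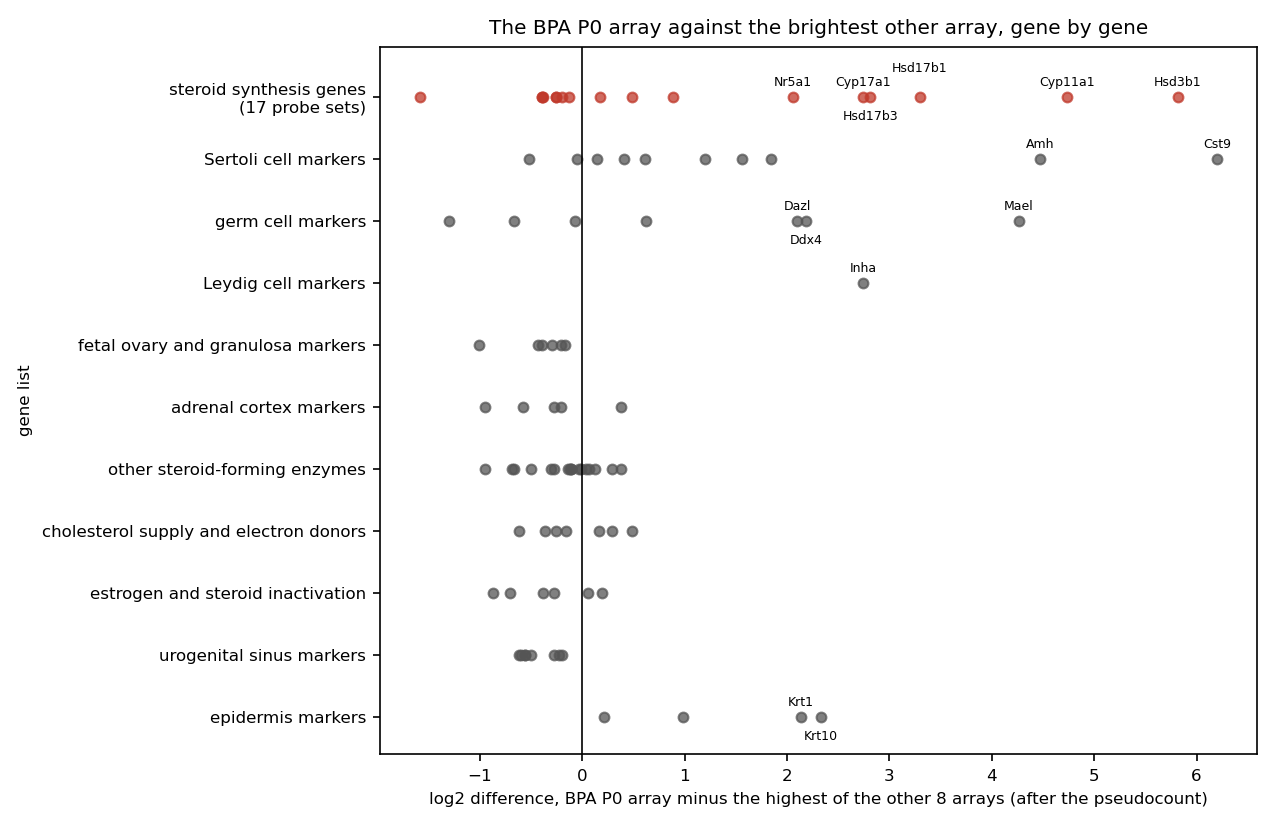
Log2 difference of the BPA P0 array from the highest of the other 8 arrays, after the pseudocount, for the 17 probe sets of steroid synthesis genes and for the main probe set of each gene of 10 other lists. Names mark differences of at least 2, which occur among steroid synthesis, Sertoli cell, germ cell, Leydig cell and epidermis genes.

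The rest of the steroid pathway was read from lists of enzymes, partners and regulators. Of 21 other steroid-forming enzymes 17 had a probe set, and 9 of them lay above the 40th percentile. None passed for BPA against control, 11 of 17 lying above 0 (median 0.12), or 8 of 17 without the BPA P0 array. The brightest, Hsd17b10, which acts mainly in amino acid breakdown, read 1448, 1450 and 1514 on the BPA arrays and 1370, 1375 and 1283 on the control arrays. For the 7 measured genes of cholesterol supply and electron donors the median was 0.10, with 7 of 7 above 0 and 0 passing. The brightest, Cyb5a, the cytochrome that aids the lyase step of Cyp17a1, read 2091, 2153 and 1798 on the BPA arrays and 2062, 2034 and 1750 on the control arrays. Scarb1, the lipoprotein receptor that supplies cholesterol, named after its values were seen, read 656 on the BPA P0 array against 363 to 468 on the other 8.

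Of 9 genes of estrogen and steroid inactivation 6 had a probe set, 2 above 0 and 0 passing for BPA against control (median -0.09). The brightest, Cyp1b1, which hydroxylates estradiol, read 860, 851 and 1026 on the BPA arrays and 908, 990 and 1245 on the control arrays. Of 16 transcription factors of steroidogenic genes 15 had a probe set, 9 above 0 and 0 passing (median 0.08). The brightest, Nr2f2, read 1416, 1332 and 1292 on the BPA arrays and 1601, 1555 and 1671 on the control arrays. Gata4, a partner of Nr5a1 in the gonad named here after its values were seen, read 228 on the BPA P0 array against 34.6 to 63.2 on the others. Of the 15 factors 2 were highest on that array, as were 18.3% of all probe sets, and 0 by at least 2 log2 units. The second was Nr0b1, at 31.5 against 9.37 to 31.0. Gata6 read 633 against 527 to 803, and Wt1 621 against 418 to 684. These 3 were also named after their values were seen.

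For the 5 main probe sets that spanned at least 2 log2 units, the genes with the most similar pattern were sought among 13399 other genes by Pearson correlation of log2 signal over the 9 arrays. All 5 reach that span through the BPA P0 array, since over the other 8 they span 0.57 to 1.95. That array thus weighs heavily in the likeness over 9 arrays. Without it the correlations fell far for most genes nearest to Hsd3b1, Hsd17b3 and Cyp17a1, and less for those nearest to Hsd17b1 and Nr5a1. For Hsd3b1 they were Inha (r = 0.99), Nckap1 (0.98), Kctd14 (0.97), Akr1cl (0.96) and Vnn1 (0.96). For Hsd17b3 they were Akr1cl and Kctd14 (0.98 each), Nckap1, Zdhhc3 and Ilk (0.97 each). For Cyp17a1 they were Hpcal1, Acsbg1, Zdhhc3, Nckap1 and Inha, at 0.96 to 0.97. Without the BPA P0 array these correlations ran from -0.47 (Akr1cl) to 0.42 (Inha) for Hsd3b1, from 0.096 (Nckap1) to 0.72 (Ilk) for Hsd17b3, and from -0.0021 (Inha) to 0.67 (Hpcal1) for Cyp17a1. Akr1cl, an aldo-keto reductase, read 1905 on the BPA P0 array against at most 69.4 on the others, and Kctd14 read 1505 against at most 245. For Hsd17b1 the nearest were Ess2, Tcta, Rnd2, Exosc1 and Ubap1 (0.94 to 0.97, and 0.67 to 0.88 without that array). For Nr5a1 they were Lrrc28, Cox5b, Plekho2, Sbsn and Mrpl27 (0.94 to 0.95, and 0.84 to 0.85 without it).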

How the data were processed

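The deposited values are intensities of 45101 probe sets on a linear scale, for which the submitters' processing notes name MAS5 with no version. The array scaling and the pooling of animals are not given in the sources used here. The 64 Affymetrix control probe sets were left out of tests. Gene names came from GEO's platform annotation (34958 with 1 symbol, 932 with several, 9211 with none). Arrays were quantile normalised and log2 taken after a pseudocount of 5.46 (their 10th percentile). The main probe set of a gene had its highest mean log2 signal. For 45037 probe sets on the 9 arrays, limma 3.58.1 in R 4.3.3 fitted terms for agent and for age (eBayes with intensity trend, 4 residual degrees of freedom), with p-values adjusted by Benjamini-Hochberg at 0.05 and no filter. Because there was 1 array for each agent and age, p-values measure the spread between arrays, which may be partly technical and mixes in responses that differ between ages. On simulated data for BPA against control over 45037 probe sets, 36% of changes of 1 log2 unit and 94% of changes of 4 were recovered. Their median fitted differences were 1.01 and 3.97. Recovery of a difference present on the BPA P0 array alone was not tested. The change per age step had 2 residual degrees of freedom. Named genes were all members, the genes of other lists whose BPA array differed from control by at least 2 log2 units at an age, and the brightest of a list, with exceptions marked where they are named. Alternatives were 2 other scalings, pseudocounts of 1 and 16, a filter at the 40th percentile, 1 probe set per gene, only the 2 agents compared, and each array left out. The members and lists were chosen with earlier results of these data known.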

Additional observations from a re-analysis of the deposited data

How the results depend on the processing

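No probe set passed for BPA or DES against control under any alternative with limma, except that 4 passed for BPA without its E17 array (0 to 4 over arrays left out). For P0 against E17 the count of 7 became 1 with deposited values, 1 with a pseudocount of 16, 25 with the filter, and 0 to 780 over arrays left out. The 2 probe sets whose BPA difference moved with age became 1 with 1 probe set per gene, and no fit with an array left out was run for that change. Values as deposited moved the median log2 difference of all probe sets to -0.21 for BPA against control and to -0.26 for P0 against E17. No member passed under any alternative apart from Nr5a1 1418315_at for P0 against E17 without the DES P0 array.

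Signs of member differences turned as follows. The cause was not tested, apart from the array left out where a range is given. With arrays left out, the difference of BPA from control ran from -0.46 to 0.049 for Cyp11a1 1439947_at (below 0 with all arrays), and from -0.14 to 2.33 for Cyp11a1 1448804_at, -0.068 to 2.99 for Hsd3b1 and -0.042 to 0.61 for Star 1418729_at (above 0 with all). That of DES from control ran from -0.95 to 0.70 for Cyp11a1 1448804_at, -0.63 to 0.51 for Cyp17a1, -0.74 to 1.16 for Hsd17b1, -0.14 to 0.20 for Hsd17b2, -0.64 to 0.34 for Hsd17b3, -0.31 to 0.032 for Hsd17b7 1417871_at, -1.01 to 0.99 for Hsd3b1, -0.14 to 1.46 for Nr5a1 1418315_at and -0.16 to 0.49 for Star 1418729_at. That of P0 from E17 ran from -0.038 to 0.52 for Cyp11a1 1439947_at, -0.053 to 0.35 for Hsd17b2, -0.022 to 1.48 for Hsd17b3, -0.17 to 0.13 for Hsd17b7 1440057_at, -0.25 to 0.075 for Hsd17b7 1448865_at, -0.35 to 0.071 for Star 1418729_at and -0.12 to 0.37 for Star 1449201_at. With a pseudocount of 1 the DES difference of Cyp17a1 was 0.0017, and with 16 that of Hsd17b1 was -0.011. With deposited values the P0 difference was -0.050 for Cyp11a1 1439947_at and -0.16 for Hsd17b2. With trimmed-mean scaling the change of the BPA difference per age step was 0.030 for Star 1418729_at and 0.011 for Hsd17b7 1417871_at. Over all probe sets the spread was larger at low signal. The median residual SD was 0.48 log2 units in the dimmest of 5 equal bins of probe sets and 0.12 in the brightest. How far low signal set the precision of the 11 dim member probe sets was not tested, and the standard errors of several also depended on the BPA P0 array.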

Other observations

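Genes of the cornified skin layer were also high on the BPA P0 array, and on BPA E18. Krt1, a keratin of differentiating epidermis, read 150, 1201 and 5294 on the BPA arrays and 73.3 to 106 on the control arrays. Krt10, its partner, read 267, 1253 and 6327 on the BPA arrays and 233, 262 and 277 on the control arrays. Lor, loricrin, read 708, 3064 and 3541 on the BPA arrays and 377 to 476 on the control arrays. Flg, filaggrin, read 15.6, 1338 and 2655 on the BPA arrays and 4.17 to 7.89 on the control arrays. None of the 4 passed for BPA against control (limma adjusted p = 0.513 to 0.577). On the DES arrays at E17, E18 and P0, Krt1 read 228, 423 and 90.5 and Krt10 read 303, 509 and 280. Lor read 763, 685 and 469 there, and Flg 50.2, 25.0 and 12.1. Over the BPA ages these genes were already high at E18, where Hsd3b1 read 6.41 and Cyp11a1 1448804_at 3.91. The other steroid synthesis genes high on BPA P0 differed among themselves at E18. The log2 difference of BPA from control there was -0.57 for Cyp17a1, -0.79 for Hsd17b1 and 0.43 for Hsd17b3. For Nr5a1 1418315_at it was 1.59, with 55.7 on the BPA E18 array and 58.9 on the DES E18 array.

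Of 6 listed estrogen target genes 4 had a probe set. For BPA against control 1 of 4 lay above 0 (median -0.10), and 0 passed in limma. The brightest, Pgr, the progesterone receptor, read 111, 104 and 76.6 on the BPA arrays, 160, 192 and 203 on the DES arrays, and 144, 119 and 108 on the control arrays. The DES arrays all lay above the control arrays, as for 5.7% of all probe sets, and the BPA arrays overlapped with the control arrays. In the fit Pgr did not pass for DES against control (0.56 ± 0.19, limma adjusted p = 0.907). Nor did it for BPA (-0.34 ± 0.19, limma adjusted p = 0.744).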
